A study of Mus musculus with 40 samples.

Results

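The expression of 10 genes of suprabasal squamous epithelium was followed: the keratins Krt4, Krt13, Krt6a, Krt6b and Krt16, the cornified envelope precursors Ivl, Sprr1a and Sprr3, the envelope cross-linking enzyme Tgm1, and the secreted protein gene Krtdap. They were chosen by name, as genes known from differentiating squamous cells, though with earlier results of these data known. They are 10 of the 37310 genes in the table, and all 10 passed the filter that left 15627 genes for testing. The samples came from SWR/J and A/J mice, strains sensitive to squamous lung cancer after topical N-nitroso-tris-chloroethylurea (NTCU), a skin-painted carcinogen. The 25 samples that carried the passed quality label were 13 laser-capture-microdissected (LCM) samples and 12 whole lung sections, 17 from SWR/J and 8 from A/J mice. Of these, 7 were normal, from mice given the acetone vehicle alone (0 µmol NTCU), 5 had mild dysplasia (15 µmol, all SWR/J) and 13 were high-grade. The high-grade group held 9 samples of moderate to severe dysplasia (14, 25 or 30 µmol), 2 of severe dysplasia (50 µmol), 1 carcinoma in situ and 1 squamous cell carcinoma (SCC) tumor (20 µmol each). High-grade A/J mice had received 14 or 20 µmol and high-grade SWR/J mice 25 µmol or more. A whole lung section carries the worst grade found in it, so most of its RNA can come from other cells. Samples are named by their number in the labels.

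The stratified squamous epithelium of skin and oesophagus is renewed from basal cells, which switch on new keratins as they move up. Krt4 and Krt13 pair in the upper layers of internal epithelia such as the oesophagus, whereas Krt6a, Krt6b and Krt16 are low in resting skin and are known for their induction in wounds and hyperproliferation. In the last step the cell builds a cornified envelope beneath its membrane, in which transglutaminases such as Tgm1 cross-link involucrin (Ivl), the small proline-rich proteins (Sprr1a, Sprr3) and loricrin (Lor). The airway normally carries a pseudostratified lining of basal, club and ciliated cells, and squamous metaplasia and dysplasia replace it before squamous cancer.

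By the NCBIM37 annotation the 10 genes are protein coding and lie at 5 sites. The type II keratins Krt4 (chr15:101748967-101755166), Krt6a (chr15:101520363-101524738) and Krt6b (chr15:101506465-101510720) are neighbours on the minus strand. The type I keratins Krt13 (chr11:99978641-99982880) and Krt16 (chr11:100107405-100110276) share the minus strand of another keratin cluster. Sprr3 (chr3:92260697-92261539), Sprr1a (chr3:92287877-92289816) and Ivl (chr3:92374834-92377637) lie within the epidermal differentiation complex, and Tgm1 (chr14:56318846-56332329) and Krtdap (chr7:31572924-31576102, plus strand) stand alone. Krt6a and Krt6b share sequence, since 47.9% of the 50-base stretches in Krt6a transcripts and 47.3% of those in Krt6b transcripts occur in another gene, mostly each other. The split of reads between them is therefore uncertain. For Krt16 the share was 11.6%, with the basal keratin Krt14, and for Ivl it was 0.43%. The other 6 genes shared none.

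Promoters are shown because most of these genes moved together across samples and the AP-1-type motif TGANTCA is a known element of squamous genes. RefSeq starts in a table of build GRCm38.p6 were found for Ivl, Sprr1a, Sprr3, Krtdap, Krt13 and Tgm1, and the 250 bases before each first-listed start were placed in NCBIM37 by exact match. Krt4, Krt6a, Krt6b and Krt16 were not matched. The motif reads the same on both strands, so 1 search covers both. It occurred in the first-listed windows of Sprr1a, Ivl, Krtdap and Krt13, and not in those of Sprr3 or Tgm1, while 6.87% of 27025 promoter windows of that length held it. A match is only a run of letters. The 4 windows with the motif follow 5′ to 3′ on the gene's strand, with the motif in capitals.
Sprr1a, chr3:92289804-92290053, minus strand: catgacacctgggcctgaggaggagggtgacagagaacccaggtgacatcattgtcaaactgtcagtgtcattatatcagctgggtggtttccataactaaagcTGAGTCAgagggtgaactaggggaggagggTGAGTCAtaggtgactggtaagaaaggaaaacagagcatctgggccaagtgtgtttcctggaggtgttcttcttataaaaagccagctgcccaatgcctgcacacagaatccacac
Ivl, chr3:92377658-92377907, minus strand: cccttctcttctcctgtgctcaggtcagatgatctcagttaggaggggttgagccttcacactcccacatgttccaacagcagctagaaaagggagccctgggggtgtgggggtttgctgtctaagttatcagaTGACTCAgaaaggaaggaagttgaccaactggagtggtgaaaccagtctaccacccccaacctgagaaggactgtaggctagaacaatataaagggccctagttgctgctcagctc
Krtdap, chr7:31572674-31572923, plus strand: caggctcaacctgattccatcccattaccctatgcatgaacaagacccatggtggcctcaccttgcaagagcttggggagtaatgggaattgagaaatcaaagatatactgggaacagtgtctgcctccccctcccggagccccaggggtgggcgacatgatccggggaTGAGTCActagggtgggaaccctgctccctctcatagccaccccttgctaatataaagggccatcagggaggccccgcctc
Krt13, chr11:99982881-99983130, minus strand: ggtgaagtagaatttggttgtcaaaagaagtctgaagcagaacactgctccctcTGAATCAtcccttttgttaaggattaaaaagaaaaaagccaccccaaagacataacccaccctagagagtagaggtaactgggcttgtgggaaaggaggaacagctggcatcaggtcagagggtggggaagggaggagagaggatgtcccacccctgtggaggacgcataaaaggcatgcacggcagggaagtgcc
Counted back from the start site, the motif began at -146 and -116 in Sprr1a, at -116 in Ivl, at -81 in Krtdap and at -196 in Krt13.

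The samples held from 2667387 to 16534728 expected counts (median 9075416). Levels are CPM, counts scaled to library size after TMM normalization, and log2 CPM carries a prior count of 2. The levels are shares of RNA, so fewer cells of a type and less RNA per cell cannot be told apart in these bulk samples. The labels do not say which samples share a mouse, and p-values measure only the spread between samples. The descriptions of 2 samples go against their grade: SM1, graded normal from a vehicle mouse, is described as mild dysplasia, and 7c, graded mild dysplasia, is described as having normal histology.

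A group of 5 samples stood far apart from the other 20 in these genes. The 10 genes together made up 2.30% to 10.4% of the library in samples 71, 78, 79, 45 and 42, and 0.00086% to 0.433% in the others. The highest of all was sample 71, a normal whole lung sample from a vehicle-treated SWR/J mouse. Samples 78 (moderate to severe dysplasia) and 79 (severe dysplasia) were SWR/J whole lung, and 45 (moderate to severe) and 42 (severe) were SWR/J LCM samples. No A/J sample with the passed label was among them. Sample 50, an A/J carcinoma in situ without that label, was also high in Krt4, Krt13 and Krtdap, as given in the closing section. At least 8 of the 10 genes were above their own upper quartile in 3 samples, 42, 45 and 71, and in no sample were all 10. Without TMM factors 71 was no longer among them.

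**Figure D1:**
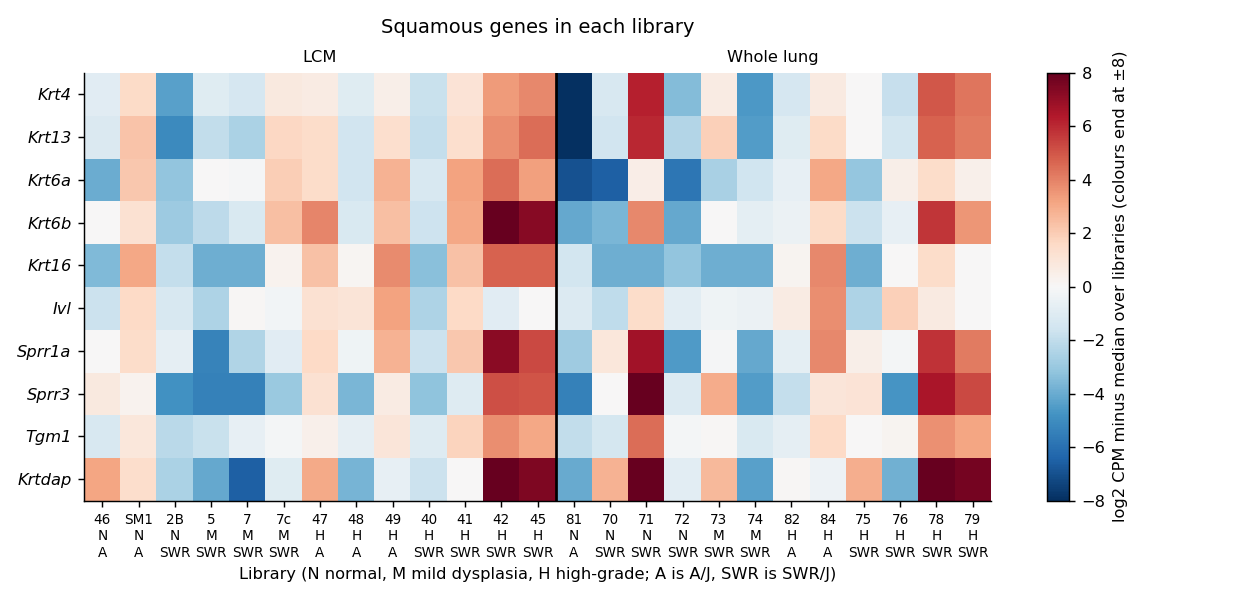
Each cell is the log2 CPM of 1 gene in 1 sample minus that gene's median over the 25 samples, with LCM samples left of the black line and whole lung samples right of it. Samples 42, 45, 71, 78 and 79 are red for most genes, but Krt16 in 71 and Ivl in 42 and 45 are not.

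Krt4, the type II keratin of internal squamous linings, measured 56450 CPM in sample 71, 23710 in 78, 14960 in 79, 11170 in 45 and 8203 in 42. In the other 20 samples it ran from 0.491 to 2226 CPM, with a median of 396.8. Its type I partner Krt13 measured 22690, 8959, 6132, 7622 and 4482 CPM in the same 5 samples and 0.328 to 1647 CPM in the rest. For both keratins the 5 samples lay above every other.

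Krtdap, a secreted protein of differentiating keratinocytes, measured 20580 CPM in sample 71, 10260 in 78, 5618 in 42, 3946 in 79 and 3515 in 45, against at most 176.8 CPM elsewhere. Sprr3, an envelope precursor abundant in oesophagus, measured 2870, 820.2, 320.8, 352.1 and 289.2 CPM in that order of samples, and at most 70.8 CPM elsewhere. Its relative Sprr1a measured 891.8, 469.2, 1294, 149.9 and 332.1 CPM, against at most 122.6. Tgm1, the cross-linking enzyme, measured 382.7, 215.0, 226.3, 155.1 and 150.6 CPM, and 3.74 to 60.6 CPM elsewhere. For these 4 genes too the 5 samples did not overlap the rest, so 6 of the 10 genes followed this division. The 5 samples were set apart by the summed level of these same 10 genes, so this count carries no test. The share of all genes with the same division was not counted.

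The other 4 genes did not follow the division. Krt16, the stress keratin, had no count in sample 71, which allows up to 1.30 CPM at that depth, and measured 8.93 CPM in 78 and 3.08 in 79, but 87.6 in 42 and 86.4 in 45. Ivl, the involucrin gene, measured 3.03 CPM in 71, 1.73 in 78, 0.992 in 79, 0.967 in 45 and 0.404 in 42, all below its level in the carcinoma in situ (15.1 CPM, sample 84) and the SCC tumor (11.02 CPM, sample 49). In the 5 samples these Ivl levels rested on only 1 (sample 42) to 10 counts (sample 79). Krt6a, the type II partner of Krt16, measured 100.9 CPM in 71 and 1519 in 42, with the whole lung samples 78 and 79 at 189.3 and 90.7. Krt6b reached 1229 CPM in 42 and 576.0 in 45, with 53.3 in 71. Thus the 3 whole lung samples held high Krt4, Krt13 and Krtdap with modest Krt16 and Krt6a, and the 2 LCM samples held both.

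Other measures moved with these 5 samples. Median TIN, a score of transcript integrity, was 21.7 to 39.1 in them and 39.5 to 75.1 in the other 20. The summed level of 10 striated muscle markers was 1703 to 12210 CPM in them and 19.5 to 1849 CPM elsewhere, so sample 71 overlapped the rest. The muscle actin Acta1, the most abundant, measured 624.3 CPM in 71, 3771 in 78, 3356 in 79, 3351 in 45 and 1038 in 42, against at most 562.6 elsewhere. It was the only 1 of the 10 with all 5 samples above the rest. Ckm, for 1, was at 332.0 CPM in 71 and up to 346.2 elsewhere. The thyroid hormone precursor Tg measured 7534 CPM in 78, 7417 in 45, 510.8 in 79, 295.2 in 71 and 140.4 in 42, with at most 133.7 elsewhere. As background, the mouse oesophagus has a keratinized squamous lining and a coat of striated muscle. The part of oesophageal tissue, of muscle and of RNA integrity in these levels was not tested.

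The 8 epidermis markers were divided. In 3 of them, Lor, Lce1a1 and Lce1b, all 5 samples lay above the other 20. The loricrin gene Lor, an envelope precursor that skin and oesophagus share, was the most abundant and measured 11880 CPM in 71, 3551 in 78, 1611 in 79, 605.2 in 42 and 446.1 in 45, with at most 164.2 elsewhere. The late envelope genes Lce1a1 and Lce1b measured 880.6 and 943.3 CPM in 71, 279.8 and 310.4 in 78, 91.9 and 99.4 in 79, 45.6 and 37.1 in 45 and 16.54 and 18.2 in 42, against at most 5.95 and 7.59 elsewhere. Krt10, a keratin of the upper layers of skin, was above every other sample in 4 of the 5, sample 71 being the exception. The keratin genes Krt1, Krt2 and Krt77 and the filaggrin-like Flg2 stayed at or below 1.70, 0.288, 1.46 and 0.288 CPM in every sample. The part of skin in these levels was not tested. The 7 basal cell markers summed to 1799 to 6062 CPM in the 5 samples and 77.9 to 5865 CPM in the rest, which overlapped.

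**Figure D2:**
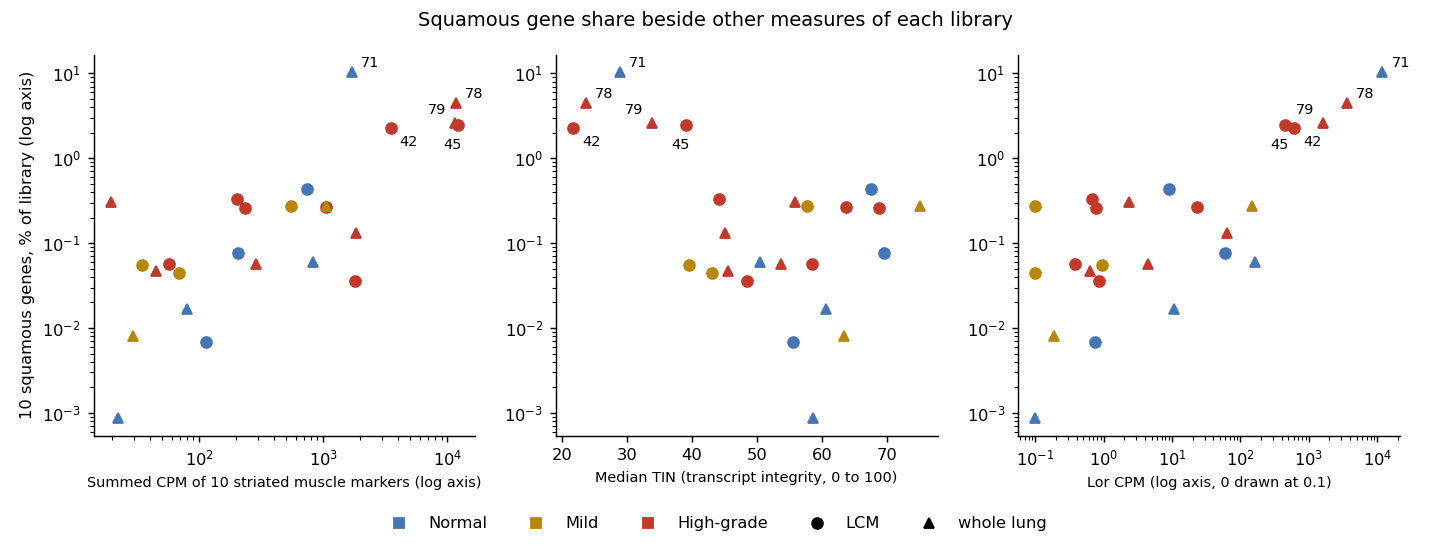
The vertical axis is the percent of each library taken by the 10 squamous genes (log axis), against summed striated muscle markers (CPM, log axis), median TIN and Lor (CPM, log axis, with 0 drawn at 0.1), with 1 point per sample. The 5 numbered samples lie at 2.30% or more, with a median TIN of 39.1 or less.

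The other envelope genes went along. Of 31 measured genes for envelope precursors and cross-linkers, 19 had all 5 samples above every one of the other 20. Repetin (Rptn) measured 8904 CPM in 71, 3662 in 78, 2331 in 79, 832.0 in 42 and 607.8 in 45, and at most 242.9 elsewhere. Lce3f, a late envelope gene, measured 12820 CPM in 71 and 380.1 in 45, and at most 100.4 elsewhere, and the 4 measured Lce3 genes are close copies. The exceptions included Flg and Crnn, which were at or below 0.433 and 1.28 CPM in every sample. Among 11 suprabasal keratins only Krt78 followed the division, at 294 to 2611 CPM in the 5 samples and at most 44.0 CPM elsewhere.

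Of 16 secreted or surface proteins of the upper layers, 9 followed it. Dmkn (dermokine) measured 7360 CPM in 71 and 1146 in 45 against at most 129.1 CPM elsewhere, and Sbsn (suprabasin) 2250 and 427.9 CPM against 34.8. Of 9 regulators of squamous differentiation 6 did so, among them Grhl3, a transcription factor of barrier formation, at 43.2 to 93.1 CPM in the 5 samples and at most 17.3 CPM elsewhere. None of the 7 basal, 6 alveolar or 6 airway markers did, and 1 of 10 muscle markers did. These counts describe samples that the 10 genes themselves set apart, so they carry no test, and the share over all genes was not counted.

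A different order of samples held for Krt16 and Ivl. In the carcinoma in situ (sample 84) Krt16 measured 46.1 CPM, Ivl 15.1 and Krt6a 582.5, with Krtdap at 14.3, Sprr3 at 16.97 and Lor at 2.33 CPM. In the SCC tumor (sample 49) Krt16 measured 44.7 CPM, Ivl 11.02 and Krt6a 480.4, with Krtdap at 11.95 and Lor at 0.782 CPM. Both are A/J samples and each is the only one of its grade with the passed label, so they have no replicate here. Without that label, the carcinoma in situ 50 had 215.6 CPM of Krt16 with 4992 of Krtdap and 3 counts of Ivl. The SCC tumor 83, also without it, had no Krt16 count and 540.5 CPM of Krtdap, at a depth of 262890 counts.

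Sample 41, an SWR/J LCM sample of moderate to severe dysplasia, had similar levels, with 16.6 CPM of Krt16, 3.32 of Ivl and 641.6 of Krt6a beside 19.3 of Krtdap and 0.665 of Lor. So was SM1, graded normal but described as mild dysplasia, with 28.3 CPM of Krt16, 3.38 of Ivl and 304.9 of Krt6a beside 50.6 of Krtdap. In these 4 samples striated muscle markers summed to 19.5, 236.3, 203.5 and 743.8 CPM, in the order given, and median TIN was 55.8, 68.8, 44.1 and 67.6. In other squamous genes these 4 were not uniformly low. They held ranks 3 to 6 of 25 in Krt6a, SM1 and 41 held ranks 6 and 7 in Krt4, 84 rank 6 in Sprr1a and 41 rank 6 in Tgm1. SM1, at 0.433% of the library, 41 at 0.329% and 84 at 0.309% had the highest shares of the 10 genes among the 20 samples. Other samples did not follow the order. Sample 47, an A/J LCM sample of moderate to severe dysplasia, had 16.2 CPM of Krt16 and 2.51 of Ivl with 157.2 of Krtdap and 20.6 of Sprr3, and sample 76, an SWR/J whole lung sample of the same grade, had 4.21 CPM of Ivl with 3.06 of Krt16.

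**Figure D3:**
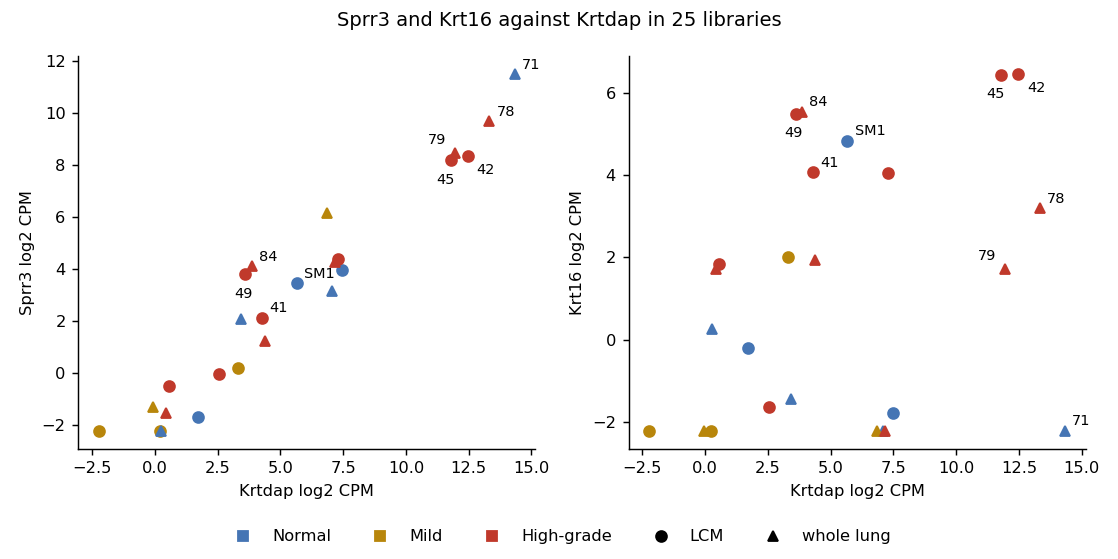
Log2 CPM of Sprr3 (left) and Krt16 (right) against log2 CPM of Krtdap, with 1 point per sample, coloured by histology and shaped by sample type. Sprr3 is higher where Krtdap is higher, whereas sample 71 has the highest Krtdap with no Krt16 count and samples 84 and 49 have high Krt16 at low Krtdap. Samples 42 and 45, the highest in Krt16, are also high in Krtdap.

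Because 5 samples formed a group of their own, correlations were taken over the other 20 (11 LCM, 9 whole lung). Those 5 were set apart by the summed level of the same genes that are correlated here, and leaving them out can change the correlations. The permutation p-values below therefore describe the 20 samples and carry no support of their own. Of the 45 pairs of genes, 33 had an adjusted p under 0.05 for Pearson's r and 36 for Spearman's rho in a two-sided permutation test, adjusted over the 45 pairs. The median r was 0.64. Krt4 and Krt13 gave r = 0.97 and rho = 0.92 (permutation p = 1e-05 for each, the smallest the permutations can give, adjusted p = 0.000113 and 0.000225), with r = 0.97 within LCM, 0.99 within whole lung and 0.94 without the 2 samples farthest from the median of Krt4. They form one filament in internal squamous epithelia.

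Krt16 and Ivl gave r = 0.87 and rho = 0.81 (permutation p = 1e-05 and 2e-05, adjusted p = 0.000113 and 0.0003), with r = 0.89 within each sample type and 0.80 without the 2 farthest samples. Both genes lie near the floor, with no count in 7 (Krt16) and 3 (Ivl) of the 25 samples. In samples 5 and 75 neither had a count, so both took the same value, set by the prior count. Sprr3 and Krtdap gave r = 0.90 and rho = 0.89 (permutation p = 1e-05 for each, adjusted p = 0.000113 and 0.000225), with r = 0.90 within each sample type and 0.89 without the 2 farthest. These pairs had the highest r of the 45 after Krt4 with Krt13 and were not named in advance. Their contrast with the combinations across them therefore carries no test. Across these pairs none of the 4 combinations passed. Krt16 with Krtdap gave r = 0.14 and rho = 0.17 (permutation p = 0.564 and 0.474, adjusted p = 0.604 and 0.508), with r = 0.48 within LCM, -0.27 within whole lung and 0.14 without the 2 farthest. Ivl with Krtdap gave r = -0.04 and rho = 0.02 (permutation p = 0.866 and 0.949, adjusted p = 0.866 and 0.967), with 0.22 within LCM, -0.34 within whole lung and -0.09 without the 2 farthest. Krt16 with Sprr3 gave r = 0.27 and rho = 0.26 (permutation p = 0.253 and 0.263, adjusted p = 0.284 and 0.296), with 0.66 within LCM, -0.11 within whole lung and 0.10 without the 2 farthest. Ivl with Sprr3 gave r = 0.24 and rho = 0.21 (permutation p = 0.314 and 0.362, adjusted p = 0.344 and 0.398), with 0.54 within LCM, -0.06 within whole lung and 0.035 without the 2 farthest. In all 4 combinations r was positive within LCM and negative within whole lung, and with the 13 LCM samples, 42 and 45 included, it was 0.69 for Krt16 with Krtdap and 0.79 for Krt16 with Sprr3. Over all 25 samples, with none left out, Krt16 with Ivl gave r = 0.63 and Sprr3 with Krtdap r = 0.96. The 4 combinations then gave r from 0.047 (Ivl with Krtdap) to 0.33 (Krt16 with Sprr3). Their adjusted p for r was 0.123 or more in the permutation test. The difference between these correlations was not itself tested, and all samples share the influence of depth and tissue makeup. Other genes joined both pairs over the 20 samples. Sprr1a gave r = 0.70 with Krt16, 0.63 with Ivl, 0.65 with Sprr3 and 0.56 with Krtdap. Tgm1 gave r = 0.72, 0.76, 0.58 and 0.33 in that order. All but the last had an adjusted p under 0.05 in the permutation test.

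The first comparison asked how squamous genes differed between normal and high-grade tissue. Normal samples came from vehicle mice and all others from NTCU mice, so grade and exposure cannot be told apart. None of the 10 genes passed in edgeR's quasi-likelihood test, with terms for RNA integrity, strain and sample type, while 2 had an unadjusted p under 0.05. DESeq2 also called 0 (2 unadjusted) and limma-voom 0 (1 unadjusted). Over all genes 3 of 15627 were called, 0.0192%, so that a count of 0 is near the background. The median log2 fold change was 0.42 over the 10 genes and -0.01 over all genes.

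Krt16 ranged from 0 to 28.3 CPM in the 7 normal samples (median 0.152) and from 0 to 87.6 CPM in the 13 high-grade samples (median 8.93). In 4 of the 13 it was above the highest normal sample, SM1, and 11 were above the normal median, but the groups overlapped. Its log2 fold change was 3.06 (SE 1.35, edgeR adjusted p = 0.521). Over the alternatives its adjusted p ran from 0.202 to 0.986.

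Krt6a ranged from 0.328 to 304.9 CPM in normal samples (median 4.16) and from 7.98 to 1519 CPM in high-grade samples (median 189.3), with all 13 above the normal median and 5 above the normal maximum. Its log2 fold change was 2.27 (SE 1.05, edgeR adjusted p = 0.535). Krt6b ranged from 0 to 53.3 CPM in normal and 0.916 to 1229 CPM in high-grade samples, with a log2 fold change of 2.12 (SE 1.25, edgeR adjusted p = 0.611). For these keratins too the groups overlapped, and the highest normal samples were SM1 for Krt6a and 71 for Krt6b.

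Ivl ranged from 0.0747 to 3.38 CPM in normal samples (median 0.328) and from 0 to 15.1 CPM in high-grade samples (median 1.73), with a log2 fold change of 1.58 (SE 0.90, edgeR adjusted p = 0.604). Only samples 84, 49 and 76 exceeded the highest normal sample. For Krt16, Krt6a and Krt6b the fitted change was positive under all 43 alternatives, and for Ivl under the 40 in which it passed the filter.

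**Figure D4:**
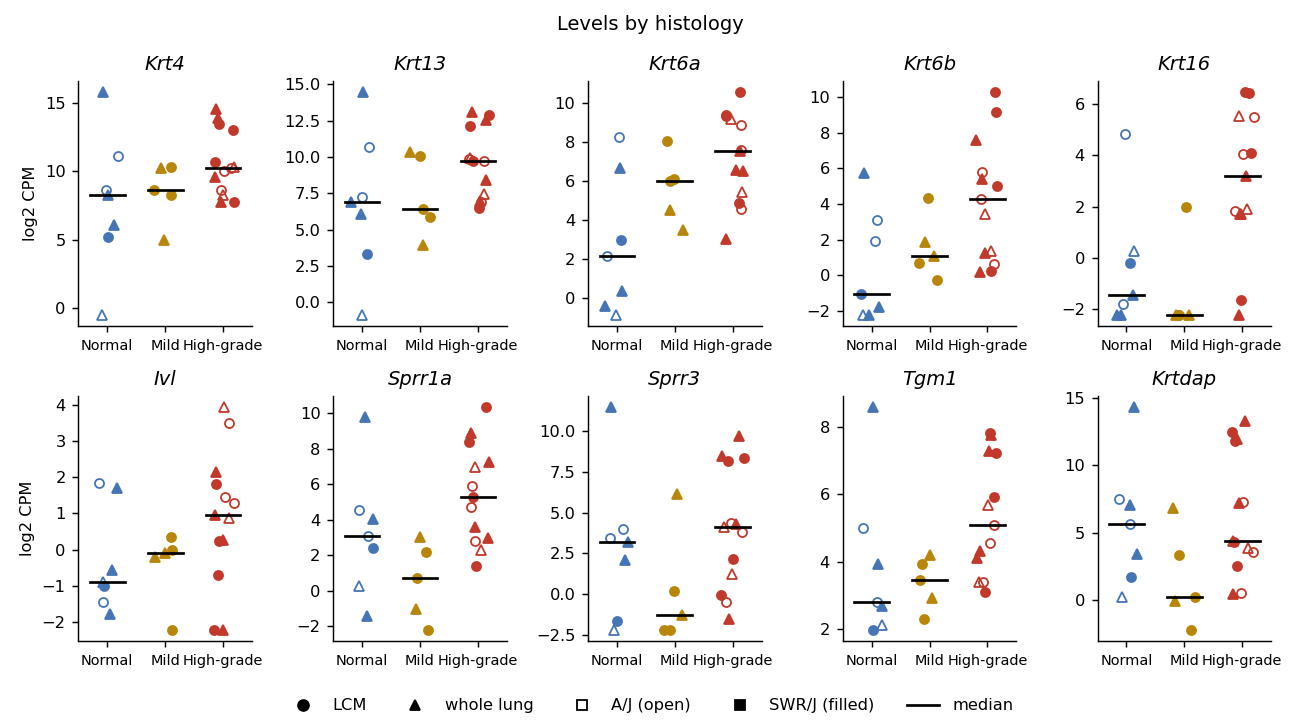
Log2 CPM of each gene by histology, with 1 point per sample (circles LCM, triangles whole lung, open A/J, filled SWR/J) and a bar at the group median. High-grade and normal samples overlap for all 10 genes, and in 7 genes, Krt4, Krt13, Krt6b, Sprr1a, Sprr3, Tgm1 and Krtdap, the highest normal point is sample 71.

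For the envelope genes the direction itself was unsettled. Krtdap ranged from 0.983 to 20580 CPM in normal samples (median 50.6) and from 1.15 to 10260 CPM in high-grade samples (median 20.7), with a log2 fold change of -0.98 (SE 1.65). Without sample 71 it was 0.68. Sprr3 gave -0.61 (SE 1.59) and 1.89 without sample 71, and Sprr1a 0.60 (SE 1.17).

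Krt4 ranged from 0.491 to 56450 CPM in normal samples (median 307.8) and from 217.2 to 23710 CPM in high-grade samples (median 1219). Its fitted log2 fold change was -0.58 (SE 1.14), although its mean log2 CPM was 7.81 ± 5.07 (SD, n = 7) in normal and 10.62 ± 2.36 (SD, n = 13) in high-grade samples. Krt13 gave -0.37 (SE 1.24), against 6.83 ± 4.93 (SD, n = 7) and 9.71 ± 2.39 (SD, n = 13) for the unadjusted means. Without sample 71 the fitted values turned to 1.32 for Krt4 and 1.72 for Krt13. Tgm1 gave 0.24 (SE 0.70). The edgeR adjusted p of these 6 genes ran from 0.854 to 0.933.

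The 5 samples that stood apart were chosen after the values were seen, by the summed level of these same 10 genes. Fits without them are therefore a description and carry no support of their own. Without them no gene of the 10 passed in edgeR (4 unadjusted) and every fitted change was positive. It was 4.54 for Krt6b, 4.26 for Krt6a, 2.79 for Krt16, 2.66 for Ivl, 2.21 for Sprr3, 2.10 for Krt13, 1.92 for Sprr1a, 1.55 for Tgm1, 1.47 for Krt4 and 0.70 for Krtdap. Striated muscle markers had a median sum of 207.6 CPM in the 7 normal and 1051 CPM in the 13 high-grade samples, and median TIN was 58.7 and 45.5. Among the other lists no gene was called in this comparison, with 0 of 20 envelope genes, 6 suprabasal keratins, 15 secreted or surface proteins, 9 regulators and 7 basal markers (median log2 fold changes -0.12, 0.40, -0.16, 0.04 and 0.33), nor any of 10 muscle markers (median 1.57). The part of muscle and TIN in the differences was not tested beyond the covariate for TIN and an alternative with muscle as a covariate, in which no gene of the 10 was called either.

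**Figure D5:**
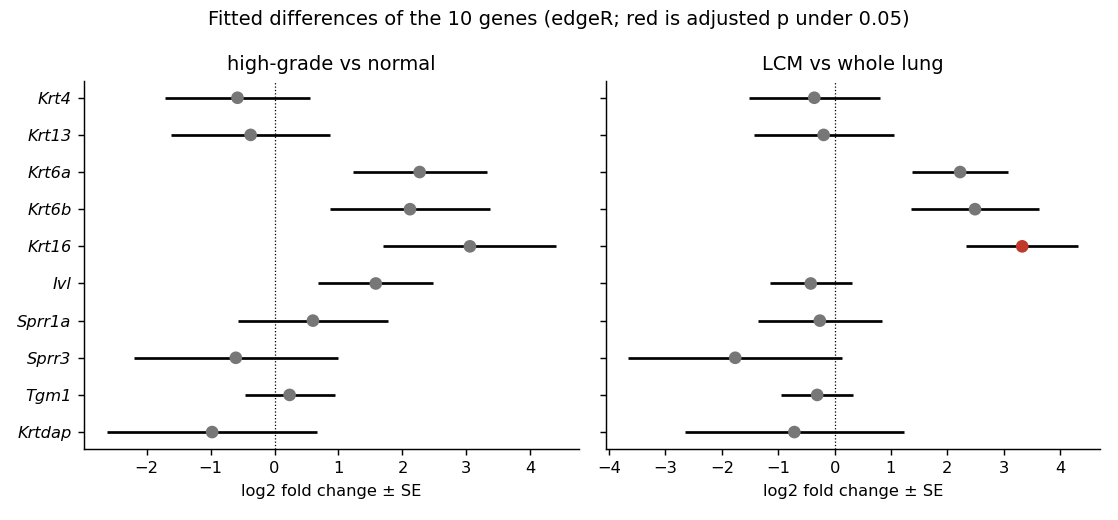
Log2 fold change with its SE (edgeR, 25 samples) of each gene for high-grade against normal (left) and LCM against whole lung (right). Krt16 in the right panel, at 3.33, is the only point with an adjusted p under 0.05.

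Mild dysplasia was compared with normal in the same model. Of all genes 12.5% were called (1947 of 15627), and of the 10 squamous genes none in edgeR, with 0 at an unadjusted p under 0.05. DESeq2 called 0 (2 unadjusted) and limma-voom 0 (0 unadjusted). Krt16 was at 0 counts in 4 of the 5 mild samples and at 3.80 CPM in 7c. Krtdap measured 0.951 CPM in sample 5, 0 in 7, 9.70 in 7c, 116.4 in 73 and 0.743 in 74. Krt6a measured 69.1, 63.9, 270.8, 11.1 and 22.6 CPM in the same order, each above the normal median of 4.16 CPM.

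The fitted changes for mild dysplasia had wide errors, from -3.59 (SE 5.75, edgeR adjusted p = 0.692) for Krtdap to 2.68 (SE 1.67, edgeR adjusted p = 0.268) for Krt6a. Without TIN as a covariate edgeR called Sprr1a. Among 20 tested genes of envelope precursors and cross-linkers 1 rose, the trichohyalin gene Tchh, an envelope and hair root protein, with a log2 fold change of 2.57 (SE 0.75, edgeR adjusted p = 0.0326), and the list's median was -1.23. No gene of the other 3 squamous lists was called, and 5 of 5 tested thymocyte markers fell, Rag1 most, by 13.1 on the log2 scale (SE 3.73, edgeR adjusted p = 0.0308).

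LCM samples were compared with whole lung sections to see which genes the microdissection enriched. Of all genes 14.6% were called (2279 of 15627) and of the 10 squamous genes 1, Krt16. It ranged from 0 to 87.6 CPM in the 13 LCM samples (median 3.80, with 2 at 0) and from 0 to 46.1 CPM in the 12 whole lung samples (median 0.568, with 5 at 0), and the ranges overlapped. Its log2 fold change was 3.33 (SE 0.99, edgeR adjusted p = 0.0283). Within SWR/J alone it was 3.88 with an adjusted p of 0.0720, and within A/J alone -2.93 with an adjusted p of 0.761, where 1 of only 3 whole lung samples was the carcinoma in situ.

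The call rested on single samples. It was lost without sample 45 (2.82, adjusted p = 0.0633), without the A/J normal whole lung sample 81 (3.24, adjusted p = 0.0511) and without SM1 (2.51, adjusted p = 0.117), all by edgeR. Without samples 42, 45 and 71 it was 2.34 (adjusted p = 0.183). Krt6a, at 4.16 to 1519 CPM in LCM (median 195.1) and 0.328 to 582.5 CPM in whole lung samples (median 33.0), gave 2.23 (SE 0.85, edgeR adjusted p = 0.0787) and was called without sample 71. Krt6b gave 2.49 (SE 1.14, edgeR adjusted p = 0.142). DESeq2 called all 3 of these keratins and limma-voom none, with 1 gene unadjusted. Without the 5 samples, which these same genes set apart, edgeR called Krt6b in place of Krt16.

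The remaining genes did not pass, from Sprr3 at -1.76 (SE 1.90) to Krt13 at -0.19 (SE 1.24), and the median over the 10 was -0.28 against -0.03 for all genes. Of 6 tested suprabasal keratins 2 fell in LCM samples, Krt79 by 1.78 (SE 0.49, edgeR adjusted p = 0.0189) and Krt80 by 1.66 on the log2 scale (SE 0.53, edgeR adjusted p = 0.0410), and the median of that list was -0.34. Of 15 secreted or surface proteins 1 rose, the annexin gene Anxa8 (1.75, SE 0.51, edgeR adjusted p = 0.0263), with a list median of 0.22. Among the 7 basal markers 1 rose, the nerve growth factor receptor gene Ngfr (1.40, SE 0.45, edgeR adjusted p = 0.0407), 6 had an unadjusted p under 0.05, and their median was 1.40.

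Markers of other lung cells moved in the same comparison. Of 6 alveolar markers 3 fell, the surfactant gene Sftpc by 3.44 on the log2 scale (SE 1.08, edgeR adjusted p = 0.0375), and of 6 club and ciliated markers 1 rose, Cyp2f2 (1.84, SE 0.43, edgeR adjusted p = 0.00873). Alveolar markers had a median sum of 3114 CPM in LCM and 8002 CPM in whole lung samples, and 99.8 CPM in the lowest whole lung sample, 70, where the 6 thymocyte markers summed to 3508 CPM. Their part in the Krt16 difference was not tested.

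None of the 10 genes passed for A/J against SWR/J samples in edgeR (1 unadjusted), DESeq2 (3 unadjusted) or limma-voom (0 unadjusted), while 0.992% of all genes were called (155 of 15627). Krt16 gave the largest value, 3.86 (SE 1.67, edgeR adjusted p = 0.237), with 0.0744 to 46.1 CPM in A/J (median 9.91, none at 0) and 0 to 87.6 CPM in SWR/J samples (median 0.152, 7 of 17 at 0). Ivl gave 2.08 (SE 1.16, edgeR adjusted p = 0.349), and Krtdap -2.19 (SE 4.29, edgeR adjusted p = 0.821). All mild samples were SWR/J and doses differed between strains, so strain and dose cannot be told apart. In the high-grade group Krtdap ran from 1.25 to 157.2 CPM in 5 A/J samples and from 1.15 to 10260 CPM in 8 SWR/J samples.

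Whether the high-grade change differed by sample type or by strain was tested with interaction terms. Of all genes 0% were called in either (0 of 15627, with 1118 and 678 at an unadjusted p under 0.05, and 2 and 5 called by DESeq2 and 0 and 0 by limma-voom). None of the 10 genes was called by edgeR, DESeq2 or limma-voom, and 0 had an unadjusted p under 0.05 in any of the 3. The interaction with sample type ran from -2.03 (SE 2.12) for Krt16 to 4.35 (SE 2.94) for Sprr3 on the log2 scale, and that with strain ran from -2.28 (SE 2.63) for Krt16 to 1.10 (SE 2.54) for Sprr1a.

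The genes most like the 10 in pattern were found by correlation with the mean z-score of the 10 over all 25 samples, as a description that depends on the 5 samples. In order they were Otop3, a proton channel gene (r = 0.97), Chit1, a chitinase gene (0.95), Hsd17b2, a steroid dehydrogenase gene (0.94), Tprg (0.94), the envelope gene Cnfn (0.94), the serine protease gene Prss27 (0.93), the ceramide synthase gene Lass3 (0.93), the transglutaminase gene Tgm5 (0.93), 2310033E01Rik (0.93) and the gasdermin gene Gsdmc2 (0.93). Over the 20 samples alone the values for these genes ran from 0.85 for Gsdmc2 to 0.93 for Otop3. Of the 10, 8 had their highest level in sample 71, and the exceptions were Prss27 (42) and Gsdmc2 (78).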

How the data were processed

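The authors extracted RNA from frozen whole lung sections and LCM tissue, made TruSeq poly(A) libraries, processed reads with Trimmomatic, STAR and RSEM on mm9, and deposited RSEM expected counts per gene, which are not normalized. Here those estimates were rounded before use in edgeR 4.0.16, DESeq2 1.42.0 and limma 3.58.1 in R 4.3.3. The 25 samples with the passed label were scaled by TMM. Genes with an interquartile range above 0 and a sum above 1 of log2 CPM (prior count 2) were kept, 15627 in all. Robust quasi-likelihood fits had histology (normal, mild, high-grade), median TIN, strain and sample type as terms, with Benjamini-Hochberg adjustment over all genes and a threshold of 0.05. The SE is the absolute log2 fold change divided by the square root of F. The fits were tested on simulated data.

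Correlations used 100000 permutations (Python 3.11.15, numpy 2.4.6, scipy 1.17.1). A sample counted as high in the genes together when at least 8 of the 10 exceeded their own upper quartile. Named genes were the 10, up to 4 called genes per list and comparison, the 10 genes most like the mean of the 10, and the marker genes of the lists. Other genes named beside the 5 samples were chosen after their values were seen. The 10 genes, the lists and the tests were chosen with earlier results of these data known. Floors for a count of 0 are 3 counts of the scaled library size and cover counting error only. The 15 samples without the passed label were used in 1 alternative, in the closing section and where named above, with all 40 samples scaled together. The dependence on filter, scaling, tool, covariates and samples is given in the closing section.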

Additional observations from a re-analysis of the deposited data

Results flagged for a closer look

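Within groups of 5 to 9 samples, 4 of 30 tests of a single far sample exceeded Dixon's critical value, where chance gives about 1 in 20. Krt16 in normal sample SM1 was at 4.83 log2 CPM, far above the other 6 normal samples. Krt16 in mild sample 7c was at 2.01 log2 CPM, with the other 4 at no count. Ivl in mild sample 5 was at -2.22 log2 CPM, which is no count. That value is set by the prior count, and at this depth 0 counts allow up to 0.951 CPM, within the range of the other 4 mild samples, so the distance is not a measured difference. Sprr3 in mild sample 73 was at 6.15 log2 CPM, above the other 4 mild samples. The descriptions of SM1 and 7c go against their grade.

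Samples without the passed label, which entered only the alternative with all 40 samples, held levels above the highest passed normal sample, with all 40 samples scaled together. In sample 77 this held for Krt4 at 67740 CPM, Krt13 at 29360 CPM, Krtdap at 25760 CPM, Sprr3 at 2597 CPM, Sprr1a at 1257 CPM and Tgm1 at 548.3 CPM. In sample 50 it held for Krt6a at 2497 CPM, Krt6b at 718.2 CPM and Krt16 at 215.6 CPM. In sample 43 it held for Sprr1a at 1770 CPM, Krt6a at 1362 CPM, Krt6b at 292.4 CPM and Krt16 at 119.3 CPM. Krt6a in sample 13B was at 373.9 CPM and Krt6b in sample 80 at 53.0 CPM. Some margins were small, since the highest passed normal sample had 2556 CPM of Sprr3 and 47.4 CPM of Krt6b. Samples 77, 50, 43, 13B and 80 held only 1137016, 843744, 287310, 1230754 and 1965373 counts, below every passed sample. The Krt16 level in sample 43 rested on 31 counts. Each was graded moderate to severe dysplasia, severe dysplasia or carcinoma in situ.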

How the results depend on the processing

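The count of squamous genes called stayed at 0 in all 43 alternatives for high-grade against normal, in all 40 for strain and in all 40 for each interaction, and in 41 of 42 for mild dysplasia, the exception being 1 gene, Sprr1a, without median TIN. For LCM against whole lung, 28 of 40 alternatives gave 1. The count was 3 with DESeq2 and 0 with limma-voom, no filter on low counts, SWR/J alone, A/J alone, without SM1 and 7c, without samples 42, 45 and 71, and with the muscle covariate, and 0 to 2 when each sample was left out in turn (0 without 45, 81 or SM1, and 2 without 71). Leaving out 42, 45 and 71, leaving out the 5 samples over 1% and the muscle covariate were chosen after the data were seen. The 3 samples with at least 8 genes above their upper quartile became 2, 42 and 45, without TMM factors, and requiring all 10 genes left 0.

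Some uncalled changes for high-grade against normal turned sign. For Krt4 and Krt13 they were 1.98 and 2.22 with limma-voom, 0.38 and 0.60 in LCM alone, 0.65 and 0.83 in SWR/J alone, 1.19 and 1.60 in A/J alone, 0.21 and 0.72 without SM1 and 7c, 0.43 and 0.76 with all 40 samples, 0.92 and 1.18 without 42, 45 and 71, 1.47 and 2.10 without the 5 samples, and -0.87 to 1.32 and -0.74 to 1.72 leaving out single samples. Krt13 gave 0.037 with the muscle covariate. Sprr3 gave 0.48 in LCM alone, 1.55 in SWR/J, 3.59 in A/J, 0.60 with all 40, 1.18 without 42, 45 and 71, 2.21 without the 5, and -1.34 to 1.89 leaving out single samples. Krtdap gave 1.73 in SWR/J, 2.28 in A/J, 0.94 with all 40, 0.70 without the 5, and -1.95 to 0.68 leaving out single samples. Sprr1a gave -0.054 with limma-voom, -0.63 in whole lung, -0.37 with moderate to severe dysplasia alone, and -0.045 to 2.37 leaving out single samples. Tgm1 gave -0.24 in whole lung and -0.28 with moderate to severe dysplasia alone. In A/J alone the LCM differences of Krt16, Krt6a and Krt6b were -2.93, -3.72 and -0.67. Over all genes, the number called for high-grade against normal (3) ran from 0 to 91 (DESeq2), that for mild dysplasia (1947) from 0 to 3653, that for LCM (2279) from 0 to 3348 and that for strain (155) from 14 to 2492. A/J alone has no mild samples, and an interaction could not be fitted within 1 strain or sample type for that factor. The causes were not tested.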

Other observations

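Among the 5 samples that stood apart, the vehicle-treated sample 71 was the lowest in several related genes that were looked at after their values were seen. Krt17, a keratin of wounds and hair follicles, measured 0.866 CPM in 71, 9.23 in 79, 27.9 in 78, 76.9 in 45 and 157.8 in 42, against 1.22 to 301.0 CPM in the other 20. Krt10, a keratin of the upper layers of skin, measured 9.09 CPM in 71, 24.9 in 79, 61.1 in 78, 62.9 in 42 and 65.8 in 45, against 2.81 to 12.04 CPM elsewhere. Sprr2d, a small proline-rich envelope gene, measured 12.99 CPM in 71, 29.6 in 79, 153.3 in 42, 211.8 in 45 and 241.8 in 78, and its relative Sprr2i 4.76, 11.9, 70.6, 75.9 and 65.4 CPM in that order. Sprr2b and Sprr2e were also lowest in 71, but other Sprr2 genes were not. Sprr2g was highest in 71, at 60.2 CPM. Sprr2a1, Sprr2a2, Sprr2a3, Sprr2f and Sprr2h were lowest in 79, and Sprr2k in 45. Sprr2a2 measured 4050 CPM in 71 against 601.0 in 79. The Sprr2 genes are close copies, so the split of reads among them is uncertain. Sample 71 is the only normal sample of the 5, and no test was made.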
